A study of Mus musculus with 4 samples.

Results

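Histone genes were examined for N6-methyladenosine (m6A) in mouse retinal organoids before and after degradation of METTL3, the enzyme that writes most m6A into mRNA. They were taken from the site tables by gene name: symbols of the H1f, H2ac, H2az, H2bc, H3c, H3f3 and H4c series, without names that mark a pseudogene. This gave 64 of the 20001 genes with a listed site, and 585 of the 833043 distinct sites listed inside genes. By name, 57 of the genes were replication-dependent, with 288 sites, and 7 were variant histone genes, with 297 sites.

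Histones package DNA into nucleosomes, each a core of H2A, H2B, H3 and H4 with a linker histone H1 at its side. The replication-dependent genes lie in clusters of intronless, near-identical copies that are transcribed in S phase, and most of their mRNAs end in a stem-loop instead of a polyA tail. The variant genes are transcribed through the cell cycle, and their mRNAs are spliced in most cases and polyadenylated. The RNA measured was polyA RNA, which leaves out mRNA without a tail, and reads of near-identical copies may be shared between genes. Values of single replication-dependent genes are uncertain for that reason, and those of H3f3a for its processed copies, which the tables list under their own names.

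m6A was read by GLORI, in which unmethylated adenosine is deaminated to inosine and sequenced as G, while m6A stays A. The level of a site is its A reads as a percentage of A plus G. All 4 libraries came from day 6 organoids of the Rx:GFP line, a retinal reporter line, with FKBP12F36V-HA at the C-terminus of the endogenous Mettl3 gene. The untreated group was 2 libraries (0 h), and the dTAG13 group was 2 libraries after 8 h in 125 nM dTAG13, a small molecule that directs proteins with this degron to the proteasome; both groups carried the degron. The genotype text of the labels names a different Mettl gene for each sample, whereas the series title names METTL3, and METTL3 was taken to be meant throughout. Nothing in the labels says that the libraries of a group came from separate cultures, so p-values measure the spread between these libraries, which may be technical.

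The tables list called sites only, each with at least 15 reads, 5 A reads and a level of at least 10%. A site that is not listed may be unmethylated, under these limits or uncovered, and the tables hold no reads for it. All listed sites together held 52195855 and 54905380 reads untreated, against 30102136 and 45966738 reads with dTAG13. Median gene coverage over the 12520 genes listed in all 4 libraries was 99.2 and 103.2 untreated and 82.4 and 110.9 with dTAG13. Replicate tables shared few sites: of the distinct sites of all genes, 91.4% were listed in 1 library only, and of the histone sites 90.8% were. As markers of the labelled tissue, 6 of 6 retinal progenitor genes were listed in all 4 libraries, with 220 and 177 sites untreated and 186 and 205 sites with dTAG13. All 4 pluripotency markers were listed in all 4 libraries too, and 0 of 3 mesoderm markers in any. In all 4 libraries, 1 of 3 endoderm, 0 of 2 neural crest and 1 of 3 neuronal markers (Tubb3) were listed.

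The first question was whether histone genes lost listed m6A sites with dTAG13. Histone genes held 184 and 172 listed sites untreated and 131 and 163 with dTAG13. Both dTAG13 libraries were lower, from 178 ± 8.49 to 147 ± 22.6 sites (SD, n = 2 libraries each), a ratio of 0.826. The ratio over all genes was 0.714. The exact two-sided permutation p was 0.33, the smallest that 2 libraries against 2 can give, so no count of sites could pass a threshold of 0.05. Since the dTAG13 libraries listed fewer sites in general, the share of all listed genic sites that lay in histone genes was 1.15 times as high with dTAG13 as without.

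Summed by class, the count was lower in the replication-dependent genes and not in the variant genes. Neither class was uniform: the variant genes H3f3a and H3f3b together had a ratio of 0.596, and the replication-dependent H4 genes 1.00. Replication-dependent genes held 102 and 85 sites untreated and 47 and 72 with dTAG13, without overlap between the groups (93.5 ± 12 and 59.5 ± 17.7, SD, n = 2 each; ratio 0.636; exact permutation p = 0.33). All genes together held 260741 and 272174 sites untreated and 178739 and 201935 with dTAG13, also without overlap (ratio 0.714). Variant genes held 82 and 87 sites untreated and 84 and 91 with dTAG13, with overlapping groups (84.5 ± 3.54 and 87.5 ± 4.95, SD, n = 2 each; ratio 1.04; exact permutation p = 0.667). Without the second dTAG13 library the variant ratio was 0.994. As a share of all listed genic sites, the ratio was 0.881 for replication-dependent and 1.45 for variant genes. The replication-dependent share of histone sites was 55.4% and 49.4% untreated against 35.9% and 44.2% with dTAG13. That difference of -12.4 percentage points had an exact permutation p of 0.33.

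Sites per gene were set against all genes. Of the 64 histone genes, 13 listed fewer sites in both dTAG13 libraries than in either untreated library, against a background of 33.1% of the 20001 genes listed anywhere. A higher count in both dTAG13 libraries was seen in 5 of 64, against 4.25% of all genes. Among the 57 replication-dependent genes the counts were 11 lower and 2 higher, and among the 7 variant genes 2 lower and 3 higher. Many members hold too few sites to separate the groups. In genes with at least 20 sites in all, both dTAG13 libraries were lower in 50.2% and higher in 4.28%. The 6 variant genes of that size gave 1 lower and 3 higher.

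**Figure D1:**
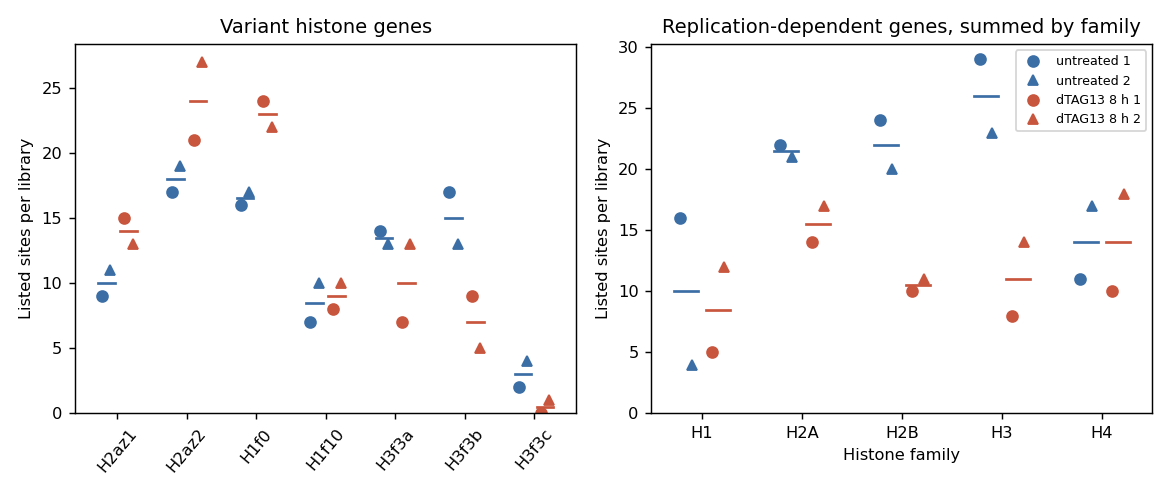
Number of listed m6A sites per library in each variant histone gene (left) and in the replication-dependent genes summed by family (right); points are libraries and bars are the means of the 2 libraries of a group. H2az1, H2az2 and H1f0 had more sites in both dTAG13 libraries, and H3f3b and H3f3c fewer. The replication-dependent H2A, H2B and H3 families stood lower in both dTAG13 libraries. Of all genes with at least 20 listed sites, 50.2% were lower and 4.28% higher in both.

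H2az1 and H2az2 encode the H2A.Z variant of H2A, which is placed in nucleosomes around transcription start sites. Positions below are those of the tables, whose genome build is not settled. H2az1 (chromosome 3, plus strand) had 9 and 11 sites untreated and 15 and 13 with dTAG13, a ratio of 1.40. H2az2 (chromosome 11, minus strand) had 17 and 19 sites untreated and 21 and 27 with dTAG13, a ratio of 1.33. In both genes each dTAG13 library listed more sites than either untreated library. The median ratio of the 10258 genes with at least 20 sites was 0.70, and 15.8% of them had a ratio above 1.

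The H2az1 and H2az2 counts were split by level. In H2az1 the sites at 40% or more numbered 4 and 3 untreated and 3 and 0 with dTAG13. Those at 20% or more numbered 6 and 6 untreated and 7 and 2 with dTAG13. The H2az1 ratio was thus 0.75 at 20% or more and 0.429 at 40% or more. The turn at 20% rested on the second dTAG13 library: without it the ratio was 1.17, and without the first 0.33. The median level of H2az1 sites was 26.3% and 20.2% untreated and 19.0% and 11.8% with dTAG13. These medians rest on 48 listings at 34 distinct positions, so the sites behind them differ between libraries. How many of all genes separate in this way was not counted. The 3 H2az1 sites listed in all 4 libraries had group means 2.25 to 2.87 points higher with dTAG13. H2az2 had no site at 40% or more in either untreated library and 3 in each dTAG13 library. These had 31 to 88 reads, and none of the positions was listed in both dTAG13 libraries. How many of all genes show such a pattern was not counted.

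H1f0 encodes the linker histone H1.0, which accumulates in cells that leave the cycle and differentiate. It had 16 and 17 sites untreated and 24 and 22 with dTAG13 (chromosome 15, plus strand; ratio 1.39). Its sites at 40% or more numbered 3 and 2 untreated and 3 and 1 with dTAG13, a ratio of 0.80. H1f10, which encodes another linker histone, had 7 and 10 sites untreated and 8 and 10 with dTAG13 (chromosome 6, minus strand; ratio 1.06), and its groups overlapped. Without the first untreated library the H1f10 ratio was 0.90, and without the second dTAG13 library it was 0.941.

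H3f3a and H3f3b both encode H3.3, the H3 variant that is deposited outside S phase. H3f3b (chromosome 11, minus strand) had 17 and 13 sites untreated and 9 and 5 with dTAG13, a ratio of 0.467. H3f3b was thus low in both dTAG13 libraries, as 50.2% of genes of its size were. H3f3a (chromosome 1, minus strand) had 14 and 13 sites untreated and 7 and 13 with dTAG13, a ratio of 0.741 with touching groups. Its processed copy H3f3a-ps1, left out by name, had 8 and 7 sites untreated and 7 and 2 with dTAG13. At levels of 20% or more, H3f3a had 1 and 2 sites untreated and 2 and 5 with dTAG13, a ratio of 2.33. H3f3c, an H3.3-like gene by name, had 2 and 4 sites untreated and 0 and 1 with dTAG13 (chromosome 2, minus strand).

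Among the replication-dependent families, H3 genes held 29 and 23 sites untreated and 8 and 14 with dTAG13, a ratio of 0.423. H2B genes held 24 and 20 sites untreated and 10 and 11 with dTAG13, a ratio of 0.477. H2A genes held 22 and 21 sites untreated and 14 and 17 with dTAG13, a ratio of 0.721. These 3 core families did not overlap between the groups. Neither did all genes together (ratio 0.714), and 50.2% of genes with at least 20 sites were lower in both dTAG13 libraries. H4 genes held 11 and 17 sites untreated and 10 and 18 with dTAG13, a ratio of 1.00. Replication-dependent H1 genes held 16 and 4 sites untreated and 5 and 12 with dTAG13, a ratio of 0.85. In H4 and H1 the libraries of a group differed by more than the group means did. Whether the families differ from each other was not tested.

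Single replication-dependent genes held few sites each, and the 10 with the most are described here. H2bc21, an H2B gene on chromosome 3, had 7 and 5 sites untreated and no listed site in either dTAG13 library. Its 12 sites were all different positions: none was listed in both untreated libraries. In the first untreated library the H2bc21 levels ran from 11.9% (12 of 101 reads) to 100% (57 of 57 reads). In the second untreated library 4 of the 5 H2bc21 sites were at 90% or more. H3c15, an H3 gene on chromosome 3, had 3 and 4 sites untreated and 0 and 3 with dTAG13.

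The other 8 lie on chromosome 13. H4c17 (H4) had 0 and 1 sites untreated and 2 and 7 with dTAG13, and was higher in both dTAG13 libraries. H4c4 (H4) had 2 and 4 sites untreated and 5 and 4 with dTAG13. H1f4 (linker histone H1) had 6 and 0 sites untreated and 3 and 4 with dTAG13, and H1f2 (linker histone H1) 3 and 2 untreated and 1 and 4 with dTAG13. H2bc8 (H2B) had 2 and 3 sites untreated and 0 and 6 with dTAG13. H3c4 (H3) had 2 and 5 untreated and 3 and 3 with dTAG13. H2ac8 (H2A) had 2 and 4 untreated and 2 and 3 with dTAG13, and H2ac23 (H2A) 3 and 2 in both groups. Apart from H2bc21 and H4c17, the groups of these genes overlapped or touched.

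Listing of a whole replication-dependent gene also varied between replicates. Of the 57 genes, 39 and 31 had a listed site untreated and 24 and 30 with dTAG13. Listing in 1 library was the most common case, with 22 genes, and 11 genes were listed in all 4. Listed in both untreated libraries and neither dTAG13 library were 6 of 57, against a background of 2.98% of all genes. The reverse held for 1 of 57, against 0.98%. A gene listed in all 4 libraries can show neither pattern. That applied to 11 of the 57 genes but to 12520 of the 20001 genes, so these backgrounds are not like for like. Besides H2bc21, the 6 were H3c8, H2bc7, H4c6, H4c2 and H4c18, and the 1 was H4c11, all named after their values were seen. With no listed site a gene has no coverage value, so lower RNA and lower methylation cannot be told apart for these genes.

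Replication-dependent sites had the higher levels in every library; sites of 1 library are not replicates, and the 2 classes were not tested against each other. The median level of replication-dependent sites was 34.3% and 29.0% untreated and 36.7% and 32.2% with dTAG13. The median level of variant sites was 16.2% and 16.8% untreated and 17.3% and 14.2% with dTAG13, below that of all genes, 28.2% and 27.0% untreated and 29.3% and 29.3% with dTAG13. Within each class the groups overlapped, with exact permutation p-values of 0.667 for the replication-dependent and 1 for the variant sites.

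Reads per site differed along with the level. Replication-dependent sites had a median of 95 and 88 reads untreated and 88 and 91 with dTAG13, and variant sites 256 and 184 untreated and 198.5 and 237 with dTAG13. The part of depth in the difference between the classes was not tested. The conversion rate of a gene is the share of its A that was read as G, and its median over the 11 replication-dependent genes listed in all 4 libraries was 91.9% and 93.4% untreated and 93.9% and 93.4% with dTAG13. Over the 6 variant genes it was 96.0% and 96.4% untreated and 96.8% and 96.9% with dTAG13. Over all 17 of these histone genes it was 1.02 points higher with dTAG13, and over all genes 0.77 points, each with an exact permutation p of 0.33.

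**Figure D2:**
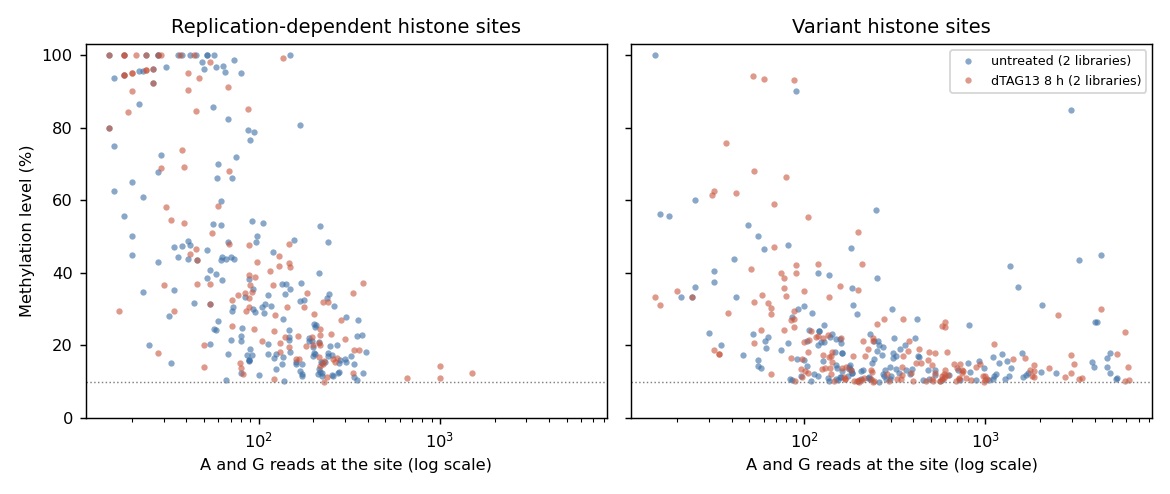
Methylation level (%) of every listed histone site against its A and G reads (log scale), for replication-dependent (left) and variant genes (right); each point is a site in 1 library, and the dotted line is the 10% limit of the tables. The sites at 90% or more lie mostly among the thinly covered replication-dependent sites, and the most deeply read sites are in variant genes.

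Sites at 90% or more made up 10.8% and 18.8% of the replication-dependent sites untreated and 23.4% and 18.1% with dTAG13. In the variant genes they made up 1.22% and 1.15% untreated and 0% and 3.30% with dTAG13, and over all genes 15.8% and 14.5% untreated and 17.6% and 18.4% with dTAG13. In number, replication-dependent sites at 90% or more were 11 and 16 untreated and 11 and 13 with dTAG13, a ratio of 0.889 with overlapping groups. Those between 40% and 90% were 32 and 17 untreated and 9 and 16 with dTAG13, a ratio of 0.51. Those between 10% and 40% were 59 and 52 untreated and 27 and 43 with dTAG13, a ratio of 0.631. The groups of the lower 2 ranges did not overlap. Neither did they over all genes, where the ratio was 0.714 between 40% and 90% and 0.683 between 10% and 40%.

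The next question was whether the same histone positions were listed again. Of the 585 distinct sites, 531 appeared in a single library and 47 in a pair; 3 appeared in 3 libraries and 4 in every library. No replication-dependent site was listed in all 4 libraries. Of 153 histone sites with at least 50 reads in the first untreated library, 9.80% were listed in the second (Wilson 95% interval 6.03% to 15.5%). In the dTAG13 libraries 7.19% and 8.50% of these sites were listed. Of 146 such sites in the second untreated library, 10.3% were listed in the first and 6.85% and 10.3% in the dTAG13 libraries. Listing in dTAG13 relative to listing in the other untreated library averaged 0.817 (SD 0.148, 4 pairs of libraries that share their members) for histone sites and 0.557 for all genes. All of the histone intervals overlap. The shares of each reference library rest on the same sites, and a difference between them was not tested. The intervals cover counting error only, since reads may include PCR copies.

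Listed in both untreated libraries were 15 histone sites, 12 of them in variant genes. Of the 15, 11 were in neither dTAG13 table, or 73.3%, against 80.0% of 25086 sites over all genes. Listed in both dTAG13 libraries were also 15 histone sites, of which 8 were in neither untreated table, or 53.3%, against 68.8% of 11156 over all genes. At a mean level of 40% or more over the libraries that list a site, both histone sites of the first kind were absent with dTAG13. Over all genes this held for 86.0% of 9132. That mean takes in the dTAG13 levels of sites still listed there, so the 86.0% depends in part on those levels.

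H2az1 held 2 deeply read sites of the first kind. The site at chromosome 3 position 137572283 stood at 43.5% (3293 reads) and 45.0% (4323 reads) untreated, a mean of 44.3% ± 1.10 (SD, n = 2), and was in neither dTAG13 table. The site at position 137572237, named after its values were seen, stood at 41.9% (1367 reads) and 36.2% (1523 reads) untreated and was also in neither dTAG13 table. These 2 sites lie 81 and 127 bases to the 5′ side of position 137572364, the first H2az1 site listed in all 4 libraries. That neighbour was covered by 2955 and 5298 reads in the dTAG13 libraries. The tables give no reads at the absent positions themselves, so their levels with dTAG13 have no measured value.

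The 3 H2az1 sites listed in all 4 libraries differed by 2.25 to 2.87 percentage points between the group means. Position 137572364 stood at 14.1% and 16.5% untreated and 17.3% and 17.8% with dTAG13. Position 137572368 stood at 26.3% and 26.4% untreated and 28.5% and 30.0% with dTAG13, higher in both dTAG13 libraries. Position 137572580 stood at 17.9% and 15.4% untreated and 14.8% and 23.7% with dTAG13, with overlapping groups, and its difference was -1.84 points without the second dTAG13 library. Of the H2az1 sites shared by both untreated libraries, the 2 with the highest levels were thus absent from the dTAG13 tables, and the 3 between 14.1% and 26.4% were present in them. A further site at position 137572360, chosen after its values were seen, was at 10.7% in the second untreated library and at 10.8% and 10.3% with dTAG13.

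**Figure D3:**
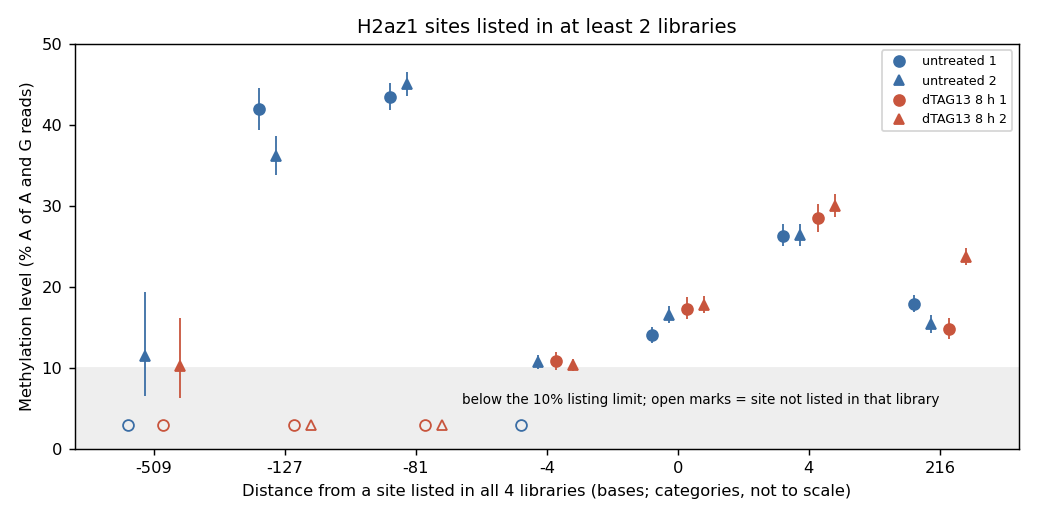
Level (%) of the 7 H2az1 sites listed in at least 2 libraries, by distance in bases from the first site listed in all 4 (equally spaced categories, not to scale); bars are Wilson 95% intervals of counting error, and open marks show libraries that do not list the site. The sites 127 and 81 bases before the reference site stood between 36.2% and 45.0% untreated and have open marks in both dTAG13 libraries.

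Tests of level could use only sites that every library listed, each time on 20 or more reads. By the quasi-binomial model with Benjamini-Hochberg adjustment, 0 of the 4 histone sites passed, against 2.28% of 2321 sites over all genes (2.20% lower and 0.0862% higher with dTAG13). The H2az1 sites differed by 2.25 percentage points at 137572364 (adjusted p = 0.626), by 2.87 at 137572368 (adjusted p = 0.348) and by 2.63 at 137572580 (adjusted p = 0.849). At an unadjusted p under 0.05, 1 of the 4 passed (137572368, unadjusted p = 0.019, quasi-binomial model), higher with dTAG13, against 3.40% of all tested sites higher and 5.95% lower. Fisher's exact test on summed reads, which leaves out the spread between libraries, called the 3 H2az1 sites, and limma on log2 odds called none, also at an unadjusted p.

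The fourth tested site was in H3f3a, at chromosome 1 position 180630240. It stood at 12.3% (333 reads) and 17.1% (321 reads) untreated and at 35.0% (100 reads) and 10.1% (188 reads) with dTAG13. The dTAG13 libraries lay on both sides of the untreated ones, and the change of 7.83 points had an adjusted p of 0.937 by the quasi-binomial model. Without the first dTAG13 library the change was -4.62 points. With reads summed over the tested sites of a gene, 0 of 2 histone genes passed the same model, against 4.53% of 1016 genes, and at an unadjusted p under 0.05 also 0 of 2, against 10.2% of genes lower and 3.64% higher. H2az1 stood at 19.1% and 19.4% untreated and 19.7% and 23.5% with dTAG13 (adjusted p = 0.433, quasi-binomial model).

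Further histone sites were listed in both untreated libraries. H2ac18, an H2A gene on chromosome 3 (plus strand), had at position 96153200 a level of 53.6% (56 reads) and 43.9% (66 reads) untreated and was in neither dTAG13 table. The sites described in the rest of this paragraph were chosen after their values were seen. H3f3b had 3 such sites on chromosome 11, at 20.8% and 28.6% (position 115913814), 25.6% and 39.4% (115914360) and 16.1% and 10.5% (115914566). H2az2 had 1, at 17.7% and 12.5% with 1236 and 1720 reads (chromosome 11 position 6383792). In H1f0, position 78914170 stood at 25.7% and 11.2% and position 78914688 at 11.4% and 47.6%, so that the untreated libraries differed from each other. None of these sites was in a dTAG13 table.

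Single sites also differed widely in level between libraries. At H1f0 position 78913522, chosen after its values were seen, the second untreated library gave 84.7% of 2976 reads and the second dTAG13 library 11.3% of 2754 reads, while the other 2 libraries did not list it. At H3c11 position 21967164, an H3 gene site on chromosome 13 chosen in the same way, the first untreated library gave 82.4% and the dTAG13 libraries 15.2% and 32.1%. At H2ac8 position 23755174, also chosen in this way, the dTAG13 libraries gave 37.0% and 85.1%, and neither untreated library listed it.

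Gene coverage was compared last, as a measure of how much histone RNA was read. In bulk RNA, fewer cells that express a gene and less RNA per cell cannot be told apart. Coverage was tested with limma on log2 values centred on the median gene of each library, in the 17 histone genes listed in all 4 libraries: 11 replication-dependent and 6 variant. With Benjamini-Hochberg adjustment 0 of 17 passed, as did 0% of the 12520 genes. At an unadjusted p under 0.05 limma gave 4 of 17, all lower with dTAG13, against 8.34% of all genes lower and 4.40% higher.

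All 6 variant genes had a log2 change below 0, with a median of -0.49, against -0.067 over all genes, of which 7095 of 12520 were below 0. The 11 replication-dependent genes had a median of -0.018, and 6 of 11 were below 0. H1f0 had a coverage of 1274 and 1394 untreated and 589 and 943 with dTAG13 (log2 change -0.76, SE 0.21; limma adjusted p = 0.363). H2az2 had 866 and 929 untreated and 455 and 721 with dTAG13 (-0.57, SE 0.21; limma adjusted p = 0.373). These genes listed more sites in both dTAG13 libraries, in which their coverage was lower.

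H3f3b had a coverage of 1060 and 1053 untreated and 584 and 805 with dTAG13 (log2 change -0.54, SE 0.20; limma adjusted p = 0.370). H3f3a had 1216 and 1245 untreated and 733 and 1018 with dTAG13 (-0.43, SE 0.20; limma adjusted p = 0.415). The part of this lower coverage in the lower site counts of these H3.3 genes was not tested. H1f10 had 977 and 1282 untreated and 645 and 1050 with dTAG13 (-0.36, SE 0.23; limma adjusted p = 0.527). H2az1, with 1731 and 1707 untreated and 1192 and 1957 with dTAG13, overlapped between the groups (-0.09, SE 0.21; limma adjusted p = 0.878).

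Among the replication-dependent genes, H3c3, an H3 gene named after its values were seen, had the largest log2 change of the 17, -1.25 (SE 0.26; limma adjusted p = 0.363). Its coverage was 187.7 and 150.6 untreated and 49.6 and 90.3 with dTAG13. The named replication-dependent genes had large errors and did not share a direction. The log2 change was -0.51 in H3c4 (SE 0.36) and -0.36 in H4c4 (SE 0.21), and with 1 library left out it ran from -0.95 to -0.07 and from -0.49 to -0.23. It was 0.12 in H2ac23 (SE 0.21), with a range of 0.01 to 0.22 so obtained. H1f2 had a coverage of 74.5 and 69.7 untreated and 121.4 and 52.7 with dTAG13, and its change of 0.23 (SE 0.52) turned to -0.58 without the first dTAG13 library. H2ac8 had 76.1 and 75.7 untreated and 41.8 and 210.9 with dTAG13, and its change of 0.39 (SE 0.59) turned to -0.56 without the second dTAG13 library. The range over the 11 genes was -1.25 to 0.51. Its upper end, the H2B gene H2bc14 (SE 0.48), was -0.11 without the first untreated library and 1.13 without the second.

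**Figure D4:**
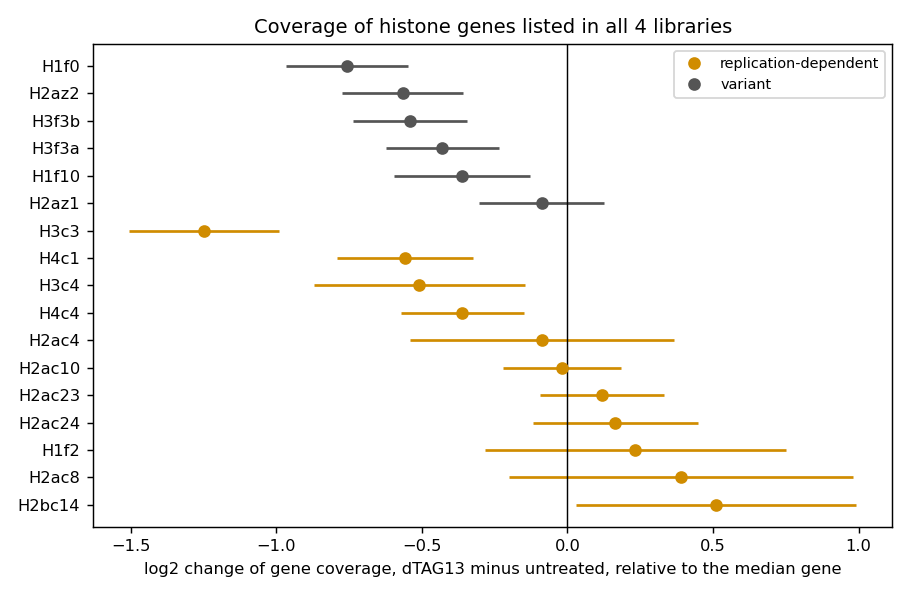
Log2 change of gene coverage (dTAG13 minus untreated, each library centred on its median gene) of the 17 histone genes listed in all 4 libraries; points are limma estimates and bars 1 standard error, from 2 libraries per group. The 6 variant genes lie between -0.76 and -0.09 and the 11 replication-dependent genes between -1.25 and 0.51, and none passed the adjusted test.

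Histone mRNA output is tied to S phase, so a list of 10 S-phase genes was set beside these values. Their summed coverage was 2910 and 3186 untreated and 1663 and 2330 with dTAG13, with a median log2 change of -0.57. By limma 0 of 10 passed after adjustment, and 7 of 10 had an unadjusted p under 0.05, all lower, against 8.34% of all genes lower and 4.40% higher. The log2 change was -0.64 in Pcna (the DNA polymerase clamp), -0.80 in Mcm3 and -0.61 in Mcm6 (subunits of the replicative helicase), and -0.59 in Rrm2 (a ribonucleotide reductase subunit). Ccne2, which encodes a cyclin of S-phase entry, was the member above 0, with 0.32 (limma unadjusted p = 0.208). These 5 were named after their values were seen. The listed sites of the 10 genes had a ratio of dTAG13 to untreated of 0.737, next to 0.636 in the replication-dependent histone genes and 0.714 in all genes. In coverage, the 11 replication-dependent histone genes tested had a median log2 change of -0.018, with 6 of 11 below 0. The 6 variant genes had a median of -0.49. The part of S phase in the histone values was not tested.

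In genes that act on histone mRNA and histone proteins no coverage change was called, but the test called 0 of the 12520 genes in all. Level could be tested in 1 of 8 genes of histone transcript processing and decay, which was not called. It could be tested in 0 of 14 chaperone genes. The 8 genes of histone transcript processing and decay held 171 and 193 sites untreated and 132 and 143 with dTAG13 (ratio 0.755). The median log2 coverage change of the 8 was 0.059, against -0.067 over all genes. In coverage 0 of 8 passed limma's adjusted test and 2 of 8 had an unadjusted p under 0.05, both higher with dTAG13, against 4.40% of all genes higher. These were Lsm10, a subunit of the U7 particle that cuts histone pre-mRNA, with a log2 change of 1.14 (SE 0.24; limma adjusted p = 0.363), and Zfp473, which encodes another factor of that processing, with 0.95 (SE 0.25; limma adjusted p = 0.363). Lsm10 coverage was 200.1 and 158.8 untreated and 291.7 and 473.6 with dTAG13.

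The 14 histone chaperone genes held 513 and 543 sites untreated and 425 and 475 with dTAG13 (ratio 0.852). Their median log2 coverage change was -0.20. In coverage 0 of 14 passed limma's adjusted test, and 2 of 14 had an unadjusted p under 0.05, both lower with dTAG13, against 8.34% of all genes lower. These were Anp32e, whose product removes H2A.Z from nucleosomes, with a log2 change of -0.91 (SE 0.20; limma adjusted p = 0.363), and Nasp, which encodes a chaperone of H3 and H4, with -0.74 (SE 0.20; limma adjusted p = 0.363). Anp32e coverage was 1010 and 1121 untreated and 454.6 and 633.2 with dTAG13, while its listed sites numbered 34 and 31 untreated and 38 and 41 with dTAG13. Of the other histone genes, which the names above do not cover, Macroh2a1, Macroh2a2 and Cenpa held 92 and 87 sites untreated and 54 and 74 with dTAG13 (ratio 0.715), and H2ax was not listed.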

How the data were processed

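GLORI libraries of polyA RNA from 4 samples were grouped by their titles. Per the labels' file names, the second mate was used after adapter, cleaning and molecular-identifier trimming; aligner and caller are not given in the sources used here. The submitters' processing notes name mm10, but 0 of 578 histone sites lay in the GRCm38 interval of their gene, so coordinates are as the tables list them (chromosome and contig names fit GRCm39), and no sequence, exon or UTR was assigned. The deposited counts are A reads and A plus G reads per site, not normalised. The deposited fraction is A over A and G, not corrected for conversion; a second deposited fraction is the gene conversion rate. The deposited coverage signal is 1 value per gene and library, not normalised to depth. The largest deposited adjusted p-value of a listed site was 0.00401.

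Members and lists were chosen with earlier results of these data known. Names were classed by symbol, and 63 of 64 were RefSeq symbols. Genes with -ps in the name (H3f3a-ps1, H3f3a-ps2, H2af-ps2, H2ac5-ps) were left out. Values per library were tested by exact permutation, two-sided. Levels were tested where every library listed the site on 20 or more reads, by a quasi-binomial model with dispersion moderated by limma 3.58.1 (R 4.3.3) and held at 1 or above. Coverage was tested by limma with no pseudocount. The p-values of the level and coverage tests were adjusted over the whole table (threshold 0.05), and the permutation p-values were not adjusted. Both models were tested on simulated data with set changes, which does not measure their power in these libraries. The named genes were all variant genes, the 10 replication-dependent genes with the most sites, all tested sites, and sites listed in both untreated libraries with a mean level of at least 40%; from the histone processing and chaperone lists, those with the smallest p. Replicate numbers were not used as pairs: deviations of same-numbered libraries had a correlation of 0.0023 over genes. Alternatives changed the level and read limits, the scaling, the model, and the libraries used.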

Additional observations from a re-analysis of the deposited data

How the results depend on the processing

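Under the alternatives, 54 values that answer a comparison were kept, 3 moved, 2 turned and 1 gained calls. For single genes and sites 225 were kept, 9 moved, 18 turned and 3 gained a call. A ratio, recovery or conversion value was kept if it stayed within 1 SD of the main value, and moved if further off in the same direction. A number of calls was kept if unchanged, and a single tested gene or site if direction and side of the threshold stayed. Kept values thus include numbers of histone calls that stayed at 0. Of the 225, 145 were coverage changes, for which the main test called 0 of 12520 genes, so there only the direction could readily turn. As a share of all listed genic sites, the ratio of dTAG13 to untreated was 1.15 for histone genes (turned), 0.881 for replication-dependent and 1.45 for variant genes, as fewer sites were listed with dTAG13 in general. Leaving out each library in turn gave ratios of 0.736 to 0.916 for histone genes, 0.503 to 0.770 for replication-dependent and 0.994 to 1.08 for variant genes, the lowest without the second dTAG13 library, so the variant ratio has no settled direction. It gave 0.401 to 1.65 points for the conversion difference. Relative recovery of histone sites at 40% or more was 0.50. Fisher's exact test on summed reads called 3 of 4 histone sites. For single genes, chosen as alternatives after seeing the data, ratios turned to 0.75 and 0.429 for H2az1 (levels of at least 20% and 40%), 0.80 for H1f0 (at least 40%), 0.90 and 0.941 for H1f10 (without the first untreated or the second dTAG13 library; up to 1.29 without another), and 2.33 and 1.02 for H3f3a (at least 20%; as a share). H2az2 and H1f10 at 40% or more had no untreated site and gave no ratio. With the replicate number as a block the ratios were 0.821, 0.625 and 1.04, and 0 histone sites or genes were called; over all genes the block took the calls from 53 sites and 46 genes to 0 and 0, as did leaving out each library for sites, with at most 5 genes left. Fisher's test called 531 sites. Coverage without centring called 15 of 12520 genes, none of them histone, and moved the median of all genes from -0.067 to -0.149. A mean coverage of at least 10 left out no gene, so at least 50 was added. Of uncalled differences, these turned when 1 library was left out, with ranges of -4.62 to 20.3 points for H3f3a (its site 180630240 and the gene) and -1.84 to 7.10 for H2az1 137572580, and in log2 coverage of -0.58 to 1.05 for H1f2, -0.12 to 0.079 for H2ac10, -0.19 to 0.52 for H2ac24, -0.66 to 0.48 for H2ac4, -0.56 to 1.34 for H2ac8, -0.23 to 0.055 for H2az1 and -0.11 to 1.13 for H2bc14. Listed sites had a median of 88 to 95 reads in replication-dependent genes and 87 to 112 over all genes.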
